A study of Mus musculus with 6 samples.

Results

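With 1 array a group, many transcripts of macrophages read lower with LPS, and part of these read higher when trichostatin A (TSA) was also given. The 72 genes described here are LPS-repressed genes that read under 1.2-fold higher with TSA, both without and with GW3965. They were chosen by their readings on 5 of the 6 arrays. A probe with 1 gene symbol qualified if it stood at or above the array median in No treatment and was at least 2-fold lower in both LPS and GW3965 + LPS than in No treatment. In addition, TSA had to leave it under 1.2-fold higher in both TSA + LPS against LPS and TSA + GW3965 + LPS against GW3965 + LPS. Of 8983 named probes, 202 met the level and LPS bounds after the rule's list of omitted gene symbols was applied. Among these, 72 met the TSA bound in both pairs, 53 were at least 1.2-fold higher with TSA in 1 pair and 77 in both. Each of the 72 probes stands for a different gene. A further 10 probes met the bounds and were left out by symbol, and 12 probes without a single symbol met them and are not described.

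Female C57BL/6 mice, 6 weeks old, gave the thioglycollate-elicited macrophages, cells that a harmless irritant draws into the body cavity. The groups, 6 with 1 array each, were TSA + GW3965 + LPS, TSA + LPS, GW3965 + LPS, LPS, TSA and No treatment. TSA inhibits histone deacetylases, LPS is bacterial lipopolysaccharide, and GW3965 activates the liver X receptors (LXR), sterol-sensing nuclear receptors. The labels give no dose, time or pooling of animals, and there are no replicates. A value from 1 pair of arrays therefore carries no error. All readings below are in the deposited intensity units, in which every array's median is close to 1.

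When LPS engages Toll-like receptor 4, macrophages switch on inflammatory genes and also turn down a large part of the programme of the resting cell, including signalling adaptors, lipid-handling enzymes and regulators of nutrient use. Histone deacetylases remove acetyl groups from histones and other proteins and act in many corepressor complexes. Inhibitors of these enzymes raise some genes and lower others.

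Promoters are shown because the genes share their direction with LPS. Windows of 250 bases before to 50 after the start were available from RefSeq (GRCm38.p6) for 59 of the 72 genes. They were searched on both strands for 8 motifs. The E-box CACGTG, the site of many basic helix-loop-helix factors, was in a window of 12 of the 59 genes (20.3 percent), against 13.4 percent of 3680 genes on the array at or above the No treatment median and 8.09 percent of 27025 genes in the table. The 72 genes include such a factor, Bhlhe40, and whether it acts on these promoters was not tested. The 59 genes had 1.49 windows each and the 3680 genes 1.27, and per window the shares were 14.8 and 11.2 percent. The AP-1 motif TGANTCA was in 8 of 59 genes (13.6 percent, against 7.04 percent of the 3680), GGGCGG in 36 (61 against 66.0 percent), CCAAT in 31 (52.5 against 42.5 percent), TATAAA in 3 (5.08 against 10.2 percent) and TGACGTCA in 3 (5.08 against 3.61 percent). Per window the shares were 9.09 against 5.84 percent for TGANTCA and 58.0 against 59.9 percent for GGGCGG. They were 39.8 against 37.2 percent for CCAAT, 3.41 against 8.42 percent for TATAAA and 3.41 against 3.01 percent for TGACGTCA. A kappaB consensus of NF-kB and a direct-repeat consensus of LXR were in 0 of 59, against 0.462 and 0 percent. These are counts of letters, with no test, and matches of different motifs may overlap. Fam50a, described below, has an E-box 68 bases before the start, but its promoter is not printed. It is among the 8 genes highest with TSA alone, with a log2 difference of 0.09. The 4 promoters printed here also hold an E-box upstream of the start and belong to genes described below. No link between the E-box and the TSA differences was tested. Klc4, Mgll and Psen2 are among the 8 genes lowest with TSA alone, and Dnmt3a is among those lowest with TSA under LPS. A gene can have several windows with different starts, and the window shown for each was chosen because it holds the E-box. Their 250 bases upstream of that start, 5′ to 3′ on the strand of the gene with CACGTG in capitals, are as follows.
Klc4 (chr17:46646081-46646330, minus strand): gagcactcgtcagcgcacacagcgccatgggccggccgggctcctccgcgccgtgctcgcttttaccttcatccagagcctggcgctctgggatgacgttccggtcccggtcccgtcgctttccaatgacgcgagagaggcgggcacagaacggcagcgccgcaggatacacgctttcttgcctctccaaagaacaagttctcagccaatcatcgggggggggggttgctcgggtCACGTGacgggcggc
Mgll (chr6:88724162-88724411, plus strand): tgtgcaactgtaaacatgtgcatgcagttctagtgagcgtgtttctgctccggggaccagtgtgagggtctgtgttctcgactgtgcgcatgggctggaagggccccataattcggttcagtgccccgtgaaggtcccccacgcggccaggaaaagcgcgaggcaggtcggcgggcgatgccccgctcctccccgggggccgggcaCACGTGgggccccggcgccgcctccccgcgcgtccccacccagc
Psen2 (chr1:180245951-180246200, minus strand): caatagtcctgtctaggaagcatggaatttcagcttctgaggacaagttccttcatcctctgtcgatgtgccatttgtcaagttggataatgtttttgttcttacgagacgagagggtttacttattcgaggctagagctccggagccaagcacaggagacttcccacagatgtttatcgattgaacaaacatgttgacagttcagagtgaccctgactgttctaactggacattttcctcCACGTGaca
Dnmt3a (chr12:3891494-3891743, plus strand): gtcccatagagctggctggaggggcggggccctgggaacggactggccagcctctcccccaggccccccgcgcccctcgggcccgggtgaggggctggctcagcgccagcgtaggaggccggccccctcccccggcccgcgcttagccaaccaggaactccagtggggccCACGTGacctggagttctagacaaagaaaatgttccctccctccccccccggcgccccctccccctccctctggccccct
The E-box begins 15 bases before the start in Klc4, 44 in Mgll, 9 in Psen2 and 80 in Dnmt3a.

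The cell type lists gave the following background. Of 7 macrophage markers on the array, 6 stood at or above the median on every array, and the seventh, Adgre1, read 0.730 in No treatment and 1.06 to 2.84 on the other arrays. Lyz2 read 729 to 1050 over all 6 arrays. Summed levels of the other lists ran from 24.2 to 82.0 for 7 neutrophil markers, 14.4 to 18.2 for 8 B cell markers, 24.4 to 43.6 for 7 T and NK cell markers and 3.80 to 5.97 for 4 eosinophil markers. They ran from 13.7 to 21.8 for 6 mast cell markers and 9.79 to 16.5 for 8 mesothelial and fibroblast markers. Mpo, Cd3e, Cd8a, Gata2, Ccr7, Lum and Msln were under the floor on all 6 arrays, but other markers of these lists were not. At or above the median on every array were 6 of 8 B cell markers and 2 of 7 T and NK cell markers. The same held for 2 of 6 mast cell markers, 2 of 8 mesothelial and fibroblast markers and 1 of 7 neutrophil markers. The neutrophil sum was lowest in No treatment (24.2) and highest in TSA + LPS (82.0). The sum of 3 dendritic cell markers was 11.7 in TSA + GW3965 + LPS, 11.1 in TSA + LPS and 12.7 in TSA, against 18.1 in GW3965 + LPS, 24.3 in LPS and 25 in No treatment. It was carried by Itgax, an integrin that macrophages also make. Its part in the TSA differences below was not tested. None of the 72 genes is in a cell type list. In these bulk samples, fewer cells of a type and less RNA per cell cannot be told apart.

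The readings that chose the genes are given as a description. The median level of the 72 genes was 1.52 in TSA + GW3965 + LPS, 1.42 in TSA + LPS, 1.63 in GW3965 + LPS, 1.65 in LPS and 2.94 in TSA, against 4.75 in No treatment. They spanned 1.02 to 102 in No treatment. Over all measured named probes, 6.06 percent were at least 2-fold lower in LPS than in No treatment and 6.39 percent in GW3965 + LPS, whereas all 72 were so by choice. The median log2 difference was -1.34 with LPS and -1.41 with GW3965 + LPS, and 5 genes were at least 4-fold lower in both. The heat map of all 72 genes shows this common pattern beside the more varied column for TSA alone.

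**Figure D1:**
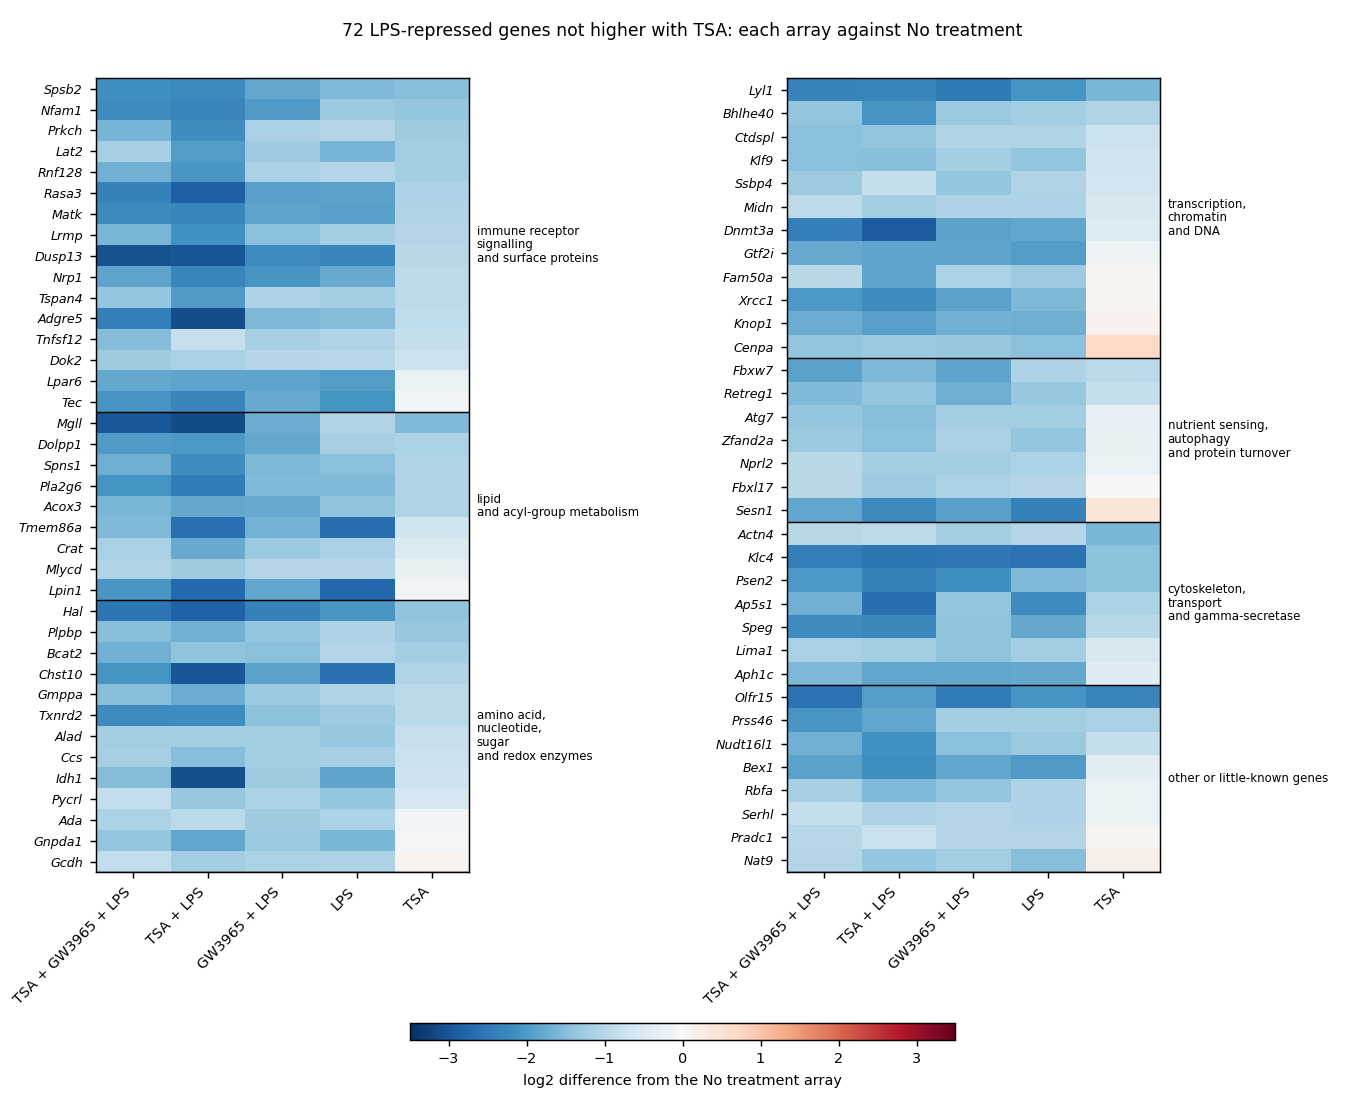
Heat map of the 72 genes (rows, grouped by role and ordered by TSA alone), with a column for each array other than No treatment and colour for the log2 difference from No treatment, floored values included. The 4 columns with LPS are blue in every row because the rule or its bounds chose them so, while the TSA column runs from -2.32 to 0.69.

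The 10 genes lowest with LPS included a kinesin light chain, a phosphatidate phosphatase and a sestrin. Klc4, a light chain of the kinesin motor and the first of the promoters shown, read 1.51 in TSA + GW3965 + LPS, 1.40 in TSA + LPS, 1.41 in GW3965 + LPS, 1.34 in LPS and 2.96 in TSA, against 8.06 in No treatment. It was 6.03-fold lower with LPS and 5.70-fold lower with GW3965 + LPS, and the 4 arrays with LPS were nearly equal. Lpin1, a phosphatidate phosphatase of glycerolipid synthesis, read 0.763 in TSA + GW3965 + LPS, 0.468 in TSA + LPS, 0.890 in GW3965 + LPS, 0.459 in LPS and 2.92 in TSA, against 3.11 in No treatment. Both of its arrays without LPS were high, and it was 6.77-fold lower with LPS. Lyl1, a basic helix-loop-helix factor of blood cell development, stood at 0.538 in TSA + GW3965 + LPS, 0.556 in TSA + LPS, 0.489 in GW3965 + LPS, 0.652 in LPS and 0.905 in TSA, against 2.73 in No treatment. No treatment alone was high for this gene. Sesn1, a stress-induced sestrin that restrains the growth kinase mTORC1, read 1.3 in TSA + GW3965 + LPS, 0.973 in TSA + LPS, 1.24 in GW3965 + LPS, 0.894 in LPS and 6.17 in TSA, against 4.6 in No treatment. Its highest array was TSA.

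The other 6 genes of this group of 10 also had No treatment as their highest array. Hal, histidine ammonia-lyase, read 5.83 in TSA + GW3965 + LPS, 4.68 in TSA + LPS, 6.51 in GW3965 + LPS, 8.07 in LPS and 12.6 in TSA, against 33.4 in No treatment. Tec, a cytoplasmic tyrosine kinase of immune receptor signalling, read 4.70 in TSA + GW3965 + LPS, 3.97 in TSA + LPS, 5.79 in GW3965 + LPS, 4.67 in LPS and 18.6 in TSA, against 19.8 in No treatment. Thus Hal was already low with TSA alone and Tec was not. Tmem86a, an enzyme that hydrolyses lysoplasmalogens, read 6.53 in TSA + GW3965 + LPS, 3.07 in TSA + LPS, 5.99 in GW3965 + LPS, 3.04 in LPS and 11.6 in TSA, against 18.9 in No treatment. Both arrays with GW3965 stood above the other LPS arrays. Dusp13, a dual-specificity phosphatase, read 0.388 in TSA + GW3965 + LPS, 0.402 in TSA + LPS, 0.704 in GW3965 + LPS, 0.658 in LPS and 1.62 in TSA, against 3.21 in No treatment. The sulfotransferase Chst10 read 0.458 in TSA + GW3965 + LPS, 0.107 in TSA + LPS, 0.532 in GW3965 + LPS, 0.319 in LPS and 0.934 in TSA, against 1.94 in No treatment. The odorant receptor gene Olfr15 read 0.117, 0.340, 0.236 and 0.308 in TSA + GW3965 + LPS, TSA + LPS, GW3965 + LPS and LPS, 0.259 in TSA and 1.3 in No treatment, so 5 of its arrays were close to the floor. Under the floors of 0.198 to 0.245 units lay the TSA + LPS readings of Chst10 and Speg and the TSA + GW3965 + LPS reading of Olfr15.

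**Figure D2:**
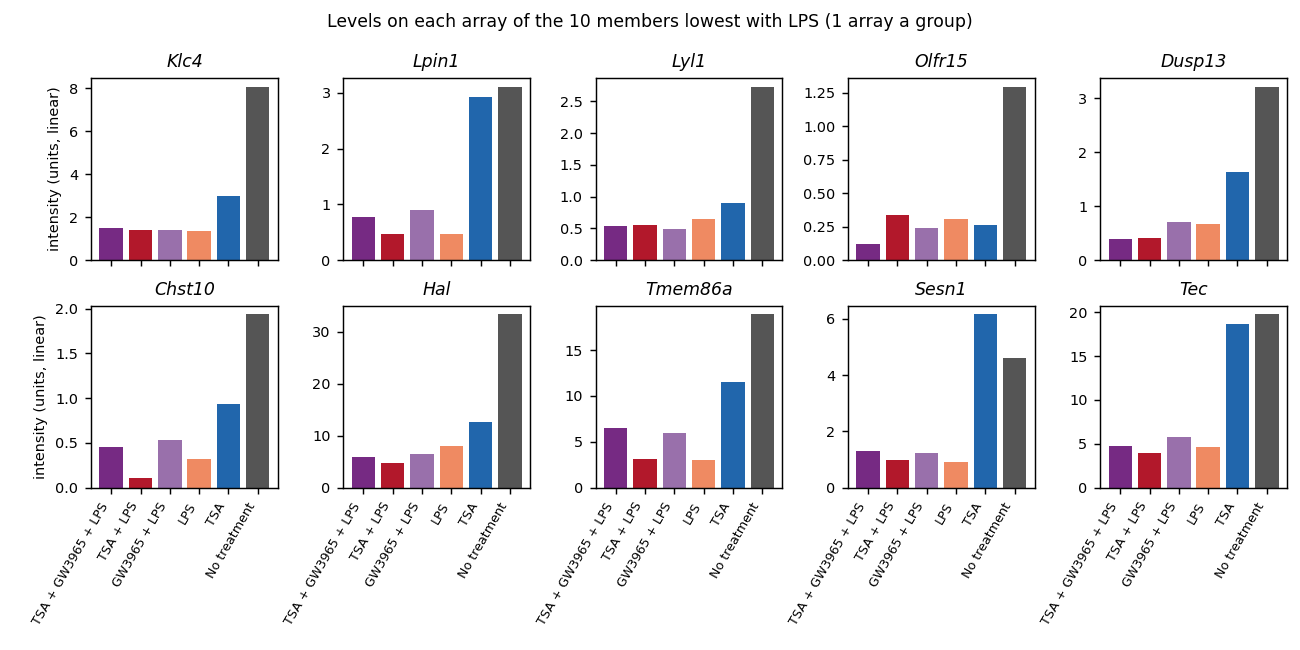
Bars give the intensity on each of 6 arrays (linear scale from 0, 1 array a group, no error bars) for the 10 genes with the lowest mean LPS difference. No treatment is the highest bar except for Sesn1, whose TSA reading was 6.17 against 4.6 in No treatment, and Lpin1, Sesn1 and Tec keep a high TSA bar.

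TSA against No treatment asks what the inhibitor did to these genes in unstimulated cells, and the TSA array is the only one that the rule did not use. Many of the 72 genes were already low in this array. Of the 72, 25 were at least 2-fold lower in TSA than in No treatment, where 4.67 percent of all measured named probes were. Another 20 were 1.5- to 2-fold lower, which makes 45 at least 1.5-fold lower, where 13.2 percent of measured probes were. Of the rest, 26 were within 1.5-fold, and 1 was at least 1.5-fold higher, where 19.9 percent of measured probes were. The median log2 difference of the 72 was -0.82 (range -2.32 to 0.69), and that of all measured named probes was 0.05. In all, 64 of the 72 were lower in TSA and 8 higher, where 46.8 percent of measured probes were lower.

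The No treatment array is shared with the rule, which asked for a high reading there, so a chance high reading would lower both differences. The other LPS-repressed probes carry the same bound on No treatment and are set beside the 72. They are not matched in their LPS difference. Its median log2 was -1.34 for the 72, -1.49 for the 53 probes higher with TSA in 1 pair and -1.84 for the 77 higher in both. The 72 thus lay closest to the 2-fold bound. Of 77 probes that were at least 1.2-fold higher with TSA in both LPS pairs, 3 (3.90 percent) were at least 2-fold lower in TSA than in No treatment, and their median log2 difference was 0.31. Of the 53 that were so in 1 pair, 9 (17.0 percent) were 2-fold lower, with a median of -0.20. Among the 72 the share was 34.7 percent. Each set was split by the TSA differences under LPS, and with 1 array a group no test of the difference between sets was made.

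**Figure D3:**
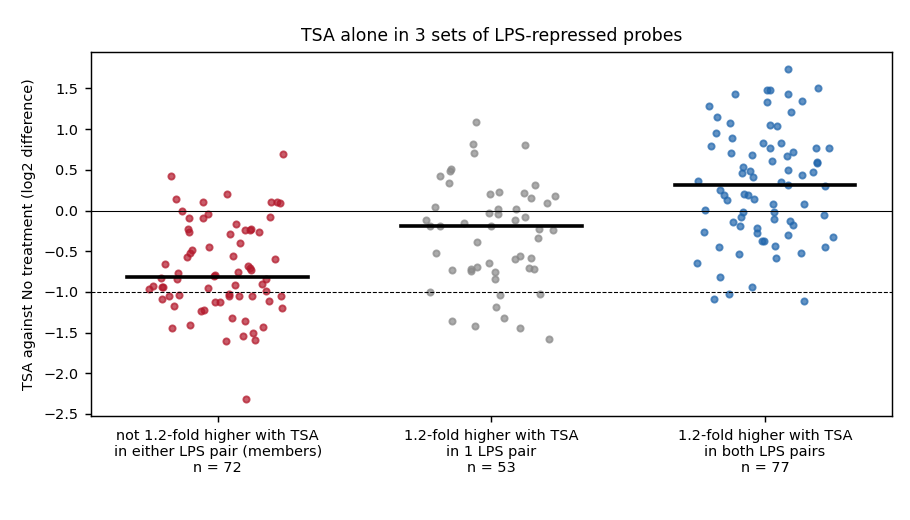
Points are LPS-repressed probes, placed by their log2 difference in TSA against No treatment (y axis) and by how TSA acted under LPS (x axis), with black bars at the medians and a dashed line at 2-fold lower. The 72 genes lie lowest, with a median of -0.82, against -0.20 and 0.31 in the other sets.

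The genes lowest with TSA alone came from several roles. Olfr15 was 5.0-fold lower in TSA than in No treatment, Actn4, an actin crosslinker, 3.04-fold and Lyl1 3.02-fold. Actn4 read 1.2 in TSA + GW3965 + LPS, 1.27 in TSA + LPS, 1.01 in GW3965 + LPS, 1.17 in LPS and 0.779 in TSA, against 2.37 in No treatment. Its TSA reading was thus the lowest of the 6. Mgll, the lipase that breaks down monoacylglycerols such as the endocannabinoid 2-arachidonoylglycerol, read 0.609 in TSA + GW3965 + LPS, 0.547 in TSA + LPS, 1.44 in GW3965 + LPS, 2.29 in LPS and 1.64 in TSA, against 4.78 in No treatment. It was lower wherever TSA was given, by 2.36-fold with GW3965 + LPS, 4.19-fold with LPS and 2.92-fold alone. Spsb2, a SOCS-box protein that marks inducible nitric oxide synthase for degradation, read 0.702 in TSA + GW3965 + LPS, 0.668 in TSA + LPS, 0.904 in GW3965 + LPS, 1.06 in LPS and 1.10 in TSA, against 3.12 in No treatment. Its TSA reading was close to that in LPS, 2.83-fold below No treatment. Klc4 was 2.72-fold lower and Psen2, a catalytic subunit of gamma-secretase, 2.69-fold lower. Psen2 read 1.13 in TSA + GW3965 + LPS, 0.891 in TSA + LPS, 1.05 in GW3965 + LPS, 1.59 in LPS and 1.71 in TSA, against 4.6 in No treatment. Hal was 2.65-fold lower. In 8 of the 72 genes the TSA reading was at or below the LPS reading, in 56 it lay between LPS and No treatment, and in 8 it was at or above No treatment.

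Those last 8 genes read at or above No treatment with TSA and were low on the 4 arrays with LPS, as the rule's bounds required. Cenpa, the histone H3 variant of centromeres, read 2.24 in TSA + GW3965 + LPS, 2.34 in TSA + LPS, 2.31 in GW3965 + LPS, 2.08 in LPS and 9.33 in TSA, against 5.78 in No treatment. Its 4 arrays with LPS were nearly equal although TSA alone was 1.61-fold above No treatment. Sesn1 was 1.34-fold higher in TSA. Xrcc1, the scaffold of DNA single-strand break repair, read 1.91 in TSA + GW3965 + LPS, 1.70 in TSA + LPS, 2.11 in GW3965 + LPS, 2.59 in LPS and 8.24 in TSA, against 7.68 in No treatment. Knop1, a nucleolar protein, read 1.53 in TSA + GW3965 + LPS, 1.36 in TSA + LPS, 1.58 in GW3965 + LPS, 1.56 in LPS and 5.62 in TSA, against 5.09 in No treatment. Nat9 read 10.3 in TSA + GW3965 + LPS, 8.29 in TSA + LPS, 9.10 in GW3965 + LPS, 7.58 in LPS and 24.3 in TSA, against 21.2 in No treatment. Both kept a gap of over 2-fold between their arrays with and without LPS. Pradc1 read 1.37 in TSA + GW3965 + LPS, 1.60 in TSA + LPS, 1.37 in GW3965 + LPS, 1.36 in LPS and 2.98 in TSA, against 2.77 in No treatment. Gcdh, a mitochondrial enzyme of lysine breakdown, read 1.43 in TSA + GW3965 + LPS, 1.12 in TSA + LPS, 1.2 in GW3965 + LPS, 1.22 in LPS and 2.78 in TSA, against 2.59 in No treatment. Fam50a read 9.69 in TSA + GW3965 + LPS, 5.32 in TSA + LPS, 8.74 in GW3965 + LPS, 7.92 in LPS and 20.3 in TSA, against 19 in No treatment. None of these 3 genes had an array with LPS as high as either array without it.

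TSA + LPS against TSA gives the LPS difference of these genes in cells given TSA. In 40 of 72 genes TSA + LPS was at least 2-fold lower than TSA, where 6.42 percent of measured named probes were that much lower. The median log2 difference was -1.11. The TSA + LPS array is shared with the rule, which capped it well below No treatment. A gene within 1.5-fold of No treatment in TSA therefore had to read lower in TSA + LPS than in TSA. The counts of genes lower in this pair are thus largely set by the choice of genes and are a description. The 77 probes that were higher with TSA in both LPS pairs had a median of -1.14 in the same pair, with 47 at least 2-fold lower, and the sets were not tested against each other. In 69 of 72 genes TSA + LPS was below TSA, where 47.9 percent of measured probes were. The exceptions were Actn4, Olfr15 and Tnfsf12, which encodes the cytokine TWEAK, with log2 differences of 0.70, 0.39 and 0.03.

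The difference of TSA + LPS against TSA did not follow the order of the classes in TSA alone. The median log2 difference was -0.94 for the 25 genes at least 2-fold lower in TSA alone, -0.79 for the 20 that were 1.5- to 2-fold lower and -1.34 for the 26 within 1.5-fold. At least 2-fold lower in TSA + LPS than in TSA were 11 of the 25, 9 of the 20 and 19 of the 26. Cenpa, the 1 gene at least 1.5-fold higher in TSA alone, was 3.99-fold lower in TSA + LPS than in TSA. The TSA reading enters both the class and the difference, so the classes are a description. Sesn1 was 6.34-fold lower in TSA + LPS than in TSA, Lpin1 6.25-fold, Dnmt3a 5.4-fold and Idh1 5.11-fold.

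**Figure D4:**
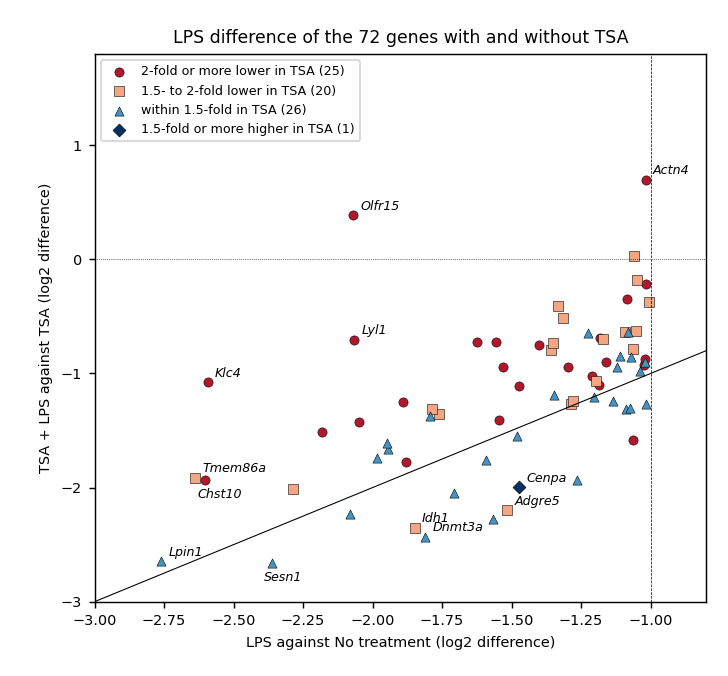
Each point is 1 of the 72 genes, with the log2 difference of LPS against No treatment on the x axis and of TSA + LPS against TSA on the y axis, marked by its class in TSA alone, and a line of equality. All 72 genes lie at or below -1 on the x axis by choice, and 69 of 72 lie below 0 on the y axis, where the rule capped TSA + LPS.

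By the rule, TSA could not raise the 72 genes by 1.2-fold under LPS, but nothing bounded how far it lowered them. In TSA + LPS against LPS the median log2 difference was -0.33, with 7 genes at least 2-fold lower, where 9.50 percent of measured probes were. In TSA + GW3965 + LPS against GW3965 + LPS it was -0.10, with 1 gene at least 2-fold lower, where 1.12 percent were. The rule used these pairs, so nothing is read from the counts. Besides Mgll, the lowest means over both pairs belonged to Adgre5, Txnrd2, Prkch, Dnmt3a and Rnf128. Adgre5, the adhesion receptor CD97, read 7.20 in TSA + GW3965 + LPS, 4.41 in TSA + LPS, 12.6 in GW3965 + LPS, 13.2 in LPS and 20.2 in TSA, against 37.8 in No treatment. Dnmt3a, a DNA methyltransferase that sets new methylation, read 7.89 in TSA + GW3965 + LPS, 5.50 in TSA + LPS, 11.3 in GW3965 + LPS, 11.9 in LPS and 29.7 in TSA, against 41.7 in No treatment. For both genes each array with TSA was below its partner without it, and the 2 arrays without LPS were the highest. Rnf128, a ubiquitin ligase known from T cell unresponsiveness, read 7.43 in TSA + GW3965 + LPS, 5.81 in TSA + LPS, 11 in GW3965 + LPS, 11.9 in LPS and 10.6 in TSA, against 24.0 in No treatment. Prkch, a protein kinase C isoform, read 0.817 in TSA + GW3965 + LPS, 0.557 in TSA + LPS, 1.15 in GW3965 + LPS, 1.23 in LPS and 1.06 in TSA, against 2.50 in No treatment. TSA alone and LPS alone thus gave Rnf128 and Prkch about the same reading.

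The 72 genes are next described by role, in groups made after the values were seen. For each count below, the share at least 2-fold lower in TSA alone was 34.7 percent over the 72. It was 4.67 percent over all measured named probes. Differences between the groups were not tested. Among genes of immune receptor signalling and the cell surface, 8 of 16 were at least 2-fold lower in TSA alone, with a median log2 difference of -1.0. Lat2, an adaptor of Fc receptor signalling, read 46.1 in TSA + GW3965 + LPS, 26.4 in TSA + LPS, 42.7 in GW3965 + LPS, 33.2 in LPS and 43.7 in TSA, against 102 in No treatment. Every treated array was well below No treatment, at 2.34-fold lower with TSA and 3.08-fold lower with LPS. Besides Lat2 and Spsb2, the genes of this group that were 2-fold lower in TSA alone were Nfam1, a receptor with an activation motif (2.57-fold), Prkch (2.36-fold), Rnf128 (2.26-fold), Rasa3, a GTPase-activating protein for Ras (2.12-fold), Matk, a kinase that restrains Src kinases (2.06-fold), and Lrmp (2.03-fold). Just short of 2-fold were Dusp13, Nrp1, a coreceptor for semaphorins, Tspan4, a tetraspanin, and Adgre5, at 1.87- to 1.98-fold lower. Tnfsf12 and the adaptor Dok2 were 1.78-fold and 1.70-fold lower. Tec and the lysophosphatidic acid receptor Lpar6 were 1.06-fold and 1.17-fold lower in TSA but 4.23-fold and 3.86-fold lower in LPS.

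Of 9 genes of lipid and acyl-group metabolism, 5 were at least 2-fold lower in TSA alone (median log2 difference -1.05). After Mgll these were Dolpp1, which recycles the dolichol carrier of glycan synthesis (2.16-fold), the phospholipase Pla2g6 (2.07-fold), the lysosomal lysophospholipid transporter Spns1 (2.07-fold) and the peroxisomal oxidase Acox3 (2.06-fold). Tmem86a was 1.64-fold lower in TSA, Crat, the carnitine acetyltransferase, 1.43-fold, Mlycd, which breaks down malonyl-CoA, 1.2-fold and Lpin1 1.06-fold. The range of 1.06- to 2.92-fold shows no common level in this group, although all 9 were lower.

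Among 13 enzymes of amino acid, nucleotide, sugar and redox metabolism, 4 were at least 2-fold lower in TSA and 1 was higher (median -0.80). The 4 were Hal, Plpbp, a pyridoxal phosphate-binding protein (2.50-fold), Bcat2, the mitochondrial branched-chain aminotransferase (2.29-fold), and Chst10 (2.08-fold). Gnpda1, glucosamine-6-phosphate deaminase, read 12.6 in TSA + GW3965 + LPS, 9.31 in TSA + LPS, 13.3 in GW3965 + LPS, 10.8 in LPS and 31.5 in TSA, against 32.6 in No treatment. The adenosine deaminase Ada also kept its level with TSA alone, at 5.92 in TSA against 6.33 in No treatment. Idh1, the cytosolic isocitrate dehydrogenase that makes NADPH, read 3.13 in TSA + GW3965 + LPS, 1.06 in TSA + LPS, 3.78 in GW3965 + LPS, 2.48 in LPS and 5.41 in TSA, against 8.94 in No treatment. Its TSA + LPS reading was the lowest of the 6. Between these, Gmppa, Txnrd2, Alad, an enzyme of heme synthesis, Ccs, the copper chaperone of superoxide dismutase, and Pycrl were 1.51- to 1.94-fold lower in TSA.

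Of 12 genes of transcription, chromatin and DNA, 2 were at least 2-fold lower in TSA and 4 were higher (median -0.53). The 2 were Lyl1 and Bhlhe40, a repressor of the circadian clock network that read 3.95 in TSA against 8.19 in No treatment. Gtf2i, a general transcription factor, was 1.12-fold lower in TSA and 3.85-fold lower in LPS. Klf9, a glucocorticoid-induced zinc finger factor, was 1.61-fold lower in TSA, and Ctdspl, Ssbp4 and Midn were 1.70-, 1.58- and 1.48-fold lower. The remaining members, apart from Dnmt3a, are the 4 that were higher, namely Cenpa, Knop1, Xrcc1 and Fam50a.

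None of the 7 genes of nutrient sensing, autophagy and protein turnover was 2-fold lower in TSA (median -0.27). Atg7, an enzyme that autophagy requires, read 13.6 in TSA, against 16.6 in No treatment, and 5.88 to 7.19 on the 4 arrays with LPS. Nprl2, a subunit of the amino acid-sensing GATOR1 complex, was 1.19-fold lower in TSA and 2.17-fold lower in LPS. The arsenite-inducible Zfand2a was 1.21-fold and the F-box protein Fbxl17 1.01-fold lower in TSA. Fbxw7, an F-box protein of a ubiquitin ligase, and Retreg1, a receptor for autophagy of the endoplasmic reticulum, were 1.92-fold and 1.79-fold lower. Of 7 genes of the cytoskeleton, transport and gamma-secretase, 4 were at least 2-fold lower in TSA, namely Actn4, Klc4, Psen2 and Ap5s1, a subunit of an adaptor complex of endosomes (2.17-fold). Aph1c, another subunit of gamma-secretase, read 9.57 in TSA + GW3965 + LPS, 8.10 in TSA + LPS, 8.02 in GW3965 + LPS, 8.23 in LPS and 21.0 in TSA, against 28.5 in No treatment. It was thus 1.36-fold lower in TSA, where Psen2 was 2.69-fold lower. Speg and Lima1, an actin-binding protein, were 1.94-fold and 1.47-fold lower.

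Of the 8 other or little-known genes, 2 were at least 2-fold lower in TSA, Olfr15 and the protease-like Prss46 (2.18-fold). Bex1 read 11.7 in TSA + GW3965 + LPS, 9.67 in TSA + LPS, 12.2 in GW3965 + LPS, 10.8 in LPS and 32.4 in TSA, against 42.9 in No treatment. Nudt16l1 was 1.8-fold, Rbfa, a mitochondrial ribosome assembly factor, 1.18-fold and Serhl 1.17-fold lower in TSA.

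The 2 genes with a further probe on the array did not read alike. The second probe of Klf9 read 12.6 in TSA + GW3965 + LPS, 12.7 in TSA + LPS, 7.51 in GW3965 + LPS, 6.74 in LPS and 29.4 in TSA, against 12.2 in No treatment. By this probe Klf9 was higher with TSA in all 3 pairs, with a log2 difference of 1.27 in TSA against No treatment. The probe of Txnrd2, the mitochondrial thioredoxin reductase, that met the rule read 0.320 in TSA + GW3965 + LPS, 0.325 in TSA + LPS, 0.546 in GW3965 + LPS, 0.608 in LPS and 0.771 in TSA, against 1.47 in No treatment. Its second probe read 3.40 to 4.21 over all 6 arrays, so it did not show the LPS difference that placed the gene among the 72.

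The rule used all 4 arrays that give the effect of GW3965 under LPS, and its bounds limit how far GW3965 could raise a gene that stayed in the set. It also capped TSA + LPS against LPS without a lower bound, which favoured genes with a low TSA + LPS reading. Of the 72 genes, 44 had their lowest reading in TSA + LPS. Such a choice tilts TSA + GW3965 + LPS against TSA + LPS upward. The GW3965 values of the 72 genes are therefore a description. In limma's fit, which held 62 of the 72, 0 rose and 0 fell with GW3965 and 4 had an unadjusted p under 0.05. Over all fitted probes 0.0824 percent rose, 0.0206 percent fell and 2.74 percent had an unadjusted p under 0.05. Nothing is read from these counts of chosen genes.

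By size, 5 genes were at least 1.5-fold higher in both GW3965 pairs and 0 at least 1.5-fold lower, where 0.515 percent of fitted probes were higher and 0.515 percent lower. Because the rule favoured low TSA + LPS readings, nothing is read from these counts either. Idh1 was 2.96-fold higher in TSA + GW3965 + LPS than in TSA + LPS, and 1.52-fold higher in GW3965 + LPS than in LPS. Tmem86a was 2.13-fold and 1.97-fold higher in the same pairs, Ap5s1 1.92-fold and 1.77-fold, and Lpin1 1.63-fold and 1.94-fold. Chst10 was at least 1.87-fold and 1.67-fold higher. By choice, all 5 were at least 2-fold lower in GW3965 + LPS than in No treatment, at 2.36- to 3.65-fold. Ap5s1 read 1.69 in TSA + GW3965 + LPS, 0.883 in TSA + LPS, 2.13 in GW3965 + LPS, 1.2 in LPS and 2.52 in TSA, against 5.46 in No treatment. At the other end, Fbxw7 was lower by 0.31 and 0.76 on the log2 scale with and without TSA, Tnfsf12 by 0.72 and 0.09, Ssbp4 by 0.44 and 0.31 and Bcat2 by 0.26 and 0.44, and Olfr15 by at least 0.65 and by 0.39. Fbxw7 read 0.485 in TSA + GW3965 + LPS, 0.599 in TSA + LPS, 0.495 in GW3965 + LPS, 0.840 in LPS and 0.933 in TSA, against 1.79 in No treatment. Tnfsf12 read 1.2 in TSA + GW3965 + LPS, 1.98 in TSA + LPS, 1.56 in GW3965 + LPS, 1.66 in LPS and 1.95 in TSA, against 3.47 in No treatment. In Tnfsf12 the TSA + LPS reading was level with TSA, and in Fbxw7 both arrays with GW3965 were the lowest. Ssbp4 read 1.95 in TSA + GW3965 + LPS, 2.64 in TSA + LPS, 1.83 in GW3965 + LPS, 2.28 in LPS and 3.0 in TSA, against 4.72 in No treatment. Bcat2 read 1.01 in TSA + GW3965 + LPS, 1.2 in TSA + LPS, 1.16 in GW3965 + LPS, 1.58 in LPS and 1.40 in TSA, against 3.20 in No treatment. Both genes had No treatment as the highest array. The median over the 72 was 0.23 in TSA + GW3965 + LPS against TSA + LPS and -0.02 in GW3965 + LPS against LPS, and over all measured probes it was 0.04 and -0.02. Over the 77 LPS-repressed probes that were higher with TSA in both LPS pairs it was 0.07 and 0.12. The choice of genes enters these medians.

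**Figure D5:**
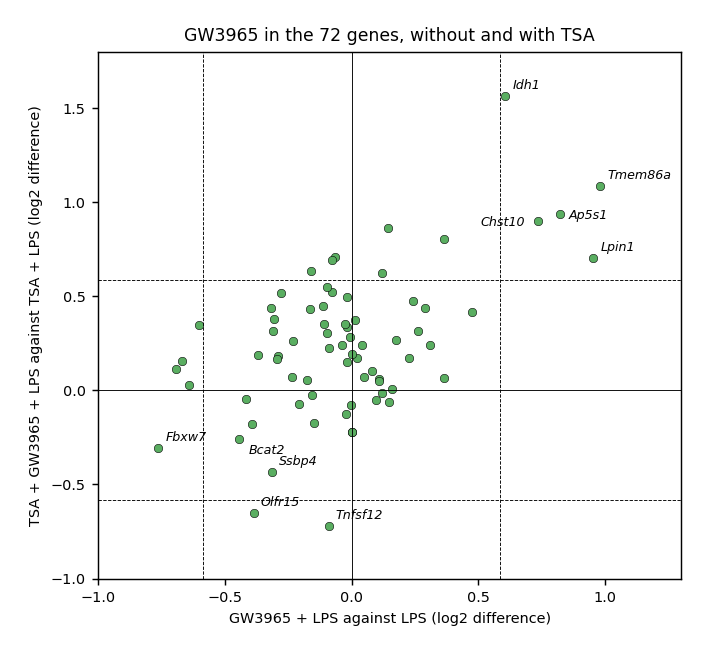
Each point is 1 of the 72 genes, with the log2 difference of GW3965 + LPS against LPS on the x axis and of TSA + GW3965 + LPS against TSA + LPS on the y axis, and dashed lines at 1.5-fold. Idh1, Tmem86a, Ap5s1, Lpin1 and Chst10 are the 5 genes beyond 1.5-fold higher in both pairs.

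Other genes of the pathways that the 72 belong to were followed through lists, leaving the 72 themselves out, with limma's LPS and TSA terms. This removed LPS-repressed genes that were not higher with TSA, which tilts the TSA term of the repressed genes that remain. Of the genes named below, Tsc22d3, Acaa2 and Tst are among the 77 probes higher with TSA in both LPS pairs. Dbp and Parp1 are among the 53 higher in 1 pair. TSA values of such genes are a description. Over all 4852 probes 12.5 percent rose and 6.74 percent fell with LPS, and 10.8 percent rose and 7.61 percent fell with TSA. Of 9 further genes of the circadian clock, the list of Bhlhe40, 0 rose and 1 fell with LPS. This was Dbp, an output factor of the clock, which fell by 2.83 in log2 units (SE 0.37, limma's adjusted p = 1.76e-05). With TSA, Clock rose by 0.66 and Csnk1d fell by 0.87 (adjusted p = 0.0444 and 0.032). Of 8 further glucocorticoid-induced genes, the list of Klf9, 3 rose and 1 fell with LPS. The one that fell was Tsc22d3, a glucocorticoid-induced regulator, by 2.49 (SE 0.27, adjusted p = 1.47e-06), and it rose by 0.89 with TSA (SE 0.22, adjusted p = 0.0102). Mt2, a metallothionein, also rose with TSA, by 1.3, and 0 of the 8 fell.

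Among 13 further genes of DNA repair and replication, the list of Xrcc1, 0 rose and 3 fell with LPS, and 0 passed for TSA in either direction. The mismatch repair gene Msh6 fell by 1.07 (SE 0.33, adjusted p = 0.0258), Parp1, which signals DNA breaks, by 1.0 (SE 0.31, adjusted p = 0.0295) and Rad50 by 0.96 (SE 0.30, adjusted p = 0.0319). Among 18 further genes of fatty acid oxidation and the peroxisome, the list of Acox3, 0 rose and 3 fell with LPS, while 1 rose and 0 fell with TSA. Catalase, Cat, fell by 1.23 with LPS (SE 0.25, adjusted p = 0.00129), and the thiolase Acaa2 and the dehydrogenase Acadm fell by 0.90 and 0.86 (adjusted p = 0.0391 and 0.0382). Acadl rose by 0.58 with TSA (adjusted p = 0.0466). Of 12 further enzymes of sulfur, one-carbon and amino acid metabolism, the list of Bcat2 and Gcdh, 1 rose and 4 fell with LPS, and 3 rose and 2 fell with TSA. Tst, a mitochondrial sulfurtransferase, fell by 2.20 with LPS (SE 0.33, adjusted p = 6.58e-05). The persulfide dioxygenase Ethe1 rose by 1.54 with TSA (SE 0.23, adjusted p = 0.000334).

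The lists that held none of the 72 genes had more genes that rose than fell with LPS. The same direction held over all fitted probes, of which 12.5 percent rose and 6.74 percent fell. It also held for the list of Klf9, with 3 risen and 1 fallen, so it does not set these lists apart. The counts were 3 risen and 2 fallen of 17 resting macrophage receptors, 5 and 0 of 13 macrophage transcription factors, 1 and 0 of 10 genes of the TGF-beta pathway, 3 and 0 of 11 of phosphoinositide signalling, 1 and 0 of 12 of the Wnt, Notch and Hedgehog pathways and 4 and 0 of 17 glycan enzymes. With TSA the counts were 0 and 2, 1 and 3, 0 and 1, 0 and 0, 0 and 1, and 1 and 1 in the same order.

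The genes nearest the bounds show how sharp the choice is. In TSA + LPS against LPS, where the bound was 1.2-fold, the nearest members were Tnfsf12 at 1.19-fold, Pradc1 at 1.17-fold and Ssbp4 at 1.16-fold, and the nearest probes outside were Sh2d3c at 1.22-fold and Arrb1 and Il16 at 1.24-fold. In TSA + GW3965 + LPS against GW3965 + LPS, Lima1, Gcdh and Aph1c were inside at 1.19-fold, and Gpcpd1, Myg1 and Erp29 were outside at 1.25-, 1.26- and 1.28-fold. For LPS against No treatment, Dok2, Bcat2 and Actn4 were inside at 2.01-, 2.02- and 2.02-fold lower, and Fbxl6, Pagr1a and Atf1 outside at 1.96-, 1.95- and 1.95-fold lower. For GW3965 + LPS against No treatment, Pradc1, Dok2 and Serhl were inside at 2.02- to 2.04-fold lower, and Surf1, Rfc2 and Hyal2 outside at 1.97-, 1.94- and 1.90-fold lower. For the level in No treatment, with the median at 0.984, Retreg1, Speg and Pycrl were inside at 1.02, 1.18 and 1.21 units, and Trpv4, C1qtnf12 and Poc1a outside at 0.868, 0.850 and 0.583 units.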

How the data were processed

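Messenger RNA was measured on 6 single-colour arrays of biotin-labelled RNA, 1 for each group, from 0.5 ug of total RNA, per the labels' protocols. The deposited values are intensity readings on a linear scale. The medians of the arrays, 0.981 to 0.987, are nearly equal, as after a scaling between arrays. The scaling method and background correction are not given in the sources used here.

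Of 10076 probes, 8983 have 1 gene symbol, 1092 have none and 1 has several. Values below an array's 25th percentile were set to it before log2 was taken. A fold that uses a floored value is given as "at least". A probe was measured in a pair when the brighter array reached its own median. A single pair of arrays allows no test of its own, so pairs are described by size, at 2-fold or 1.5-fold.

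With limma 3.58.1 in R 4.3.3, effects of LPS, of GW3965 and of TSA were fitted without interactions to 4852 named probes at or above the median on at least 2 arrays. The prior variance followed intensity. Residual degrees of freedom numbered 2, and those of the prior 15.4. The p-values were two-sided and Benjamini-Hochberg adjusted over all 4852 probes. Its LPS and TSA terms were used for other genes of the pathway lists. For the 72 genes only counts from the GW3965 term are given, as a description, since the rule used those arrays. Nothing in the labels says whether the cultures or animals behind the arrays were separate. The p-values thus cover the spread among these 6 arrays alone, which may be technical, and their number limits the precision.

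The genes, the 11 pathway lists, the 8 cell type lists and the naming rule were chosen with earlier results of these data known. Role groups and promoter motifs were chosen after the values were seen. Values on every array are given for members lowest with LPS (10), with the highest readings in No treatment (8), lowest and highest with TSA alone (8 each), highest and lowest with GW3965 in both pairs (5 each), and lowest with TSA under LPS (6). The 3 members and 3 other probes nearest each bound are also named. The pipeline was tested on simulated data. Alternatives covered scaling, floor, level filter, probe averaging and the bounds of the rule. Plots used matplotlib 3.10.9 (Python 3.11.15).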

Additional observations from a re-analysis of the deposited data

Results flagged for a closer look

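Of the 72 genes, 5 moved in opposite directions with GW3965 in cells with and without TSA, by at least 1.2-fold each way, which is why they are listed. Psen2 had log2 differences of 0.35 in TSA + GW3965 + LPS against TSA + LPS and -0.60 in GW3965 + LPS against LPS. The values in the same pairs were 0.52 and -0.28 for Lrmp, 0.44 and -0.32 for Nrp1, 0.38 and -0.30 for Rbfa and 0.32 and -0.31 for Hal. All 5 were lower without TSA and higher with it, a direction favoured by a rule that kept genes with low TSA + LPS readings. By any amount, 35 of the 72 had opposite signs in these pairs. The share of all probes that moved oppositely by 1.2-fold was not computed, so nothing is read from the count. The rule used all 4 arrays, and these differences were not tested, as each pair holds 1 array a group.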

How the results depend on the processing

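With the rule applied again after quantile normalization, 111 genes met it, 68 of them among the 72. Of the 111, 49 were at least 2-fold lower in TSA than in No treatment (44.1 percent, against 6.07 percent of measured probes). The median of TSA + LPS against TSA over the genes chosen was -1.0 after quantile normalization and -1.22 after cyclic loess, against -1.11. With other bounds, 39 genes met a TSA bound of 1.0-fold and 110 one of 1.5-fold, 19 met an LPS bound of 3-fold and 209 probes one of 1.5-fold. The cyclic loess, the floors at the median or the 10th percentile, the 60th percentile as level filter and probe averaging gave 66 to 74 genes, 58 to 72 of them shared with the 72. Of all the genes that each setting chose, 32.9 to 35.7 percent were at least 2-fold lower in TSA, against 3.85 to 5.34 percent of measured probes. Averaging probes removed Klf9 and Txnrd2. No setting gave a limma call for GW3965 among the genes. No paired analysis was possible because each group has 1 array. The number of arrays limits the precision, and readings close to the floor, such as those of Olfr15 and Chst10, limit their folds.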
